A study of Mus musculus with 48 samples.

Results

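The genes described here encode the machinery that makes lysosomes acid and lets them digest. They are 43 genes chosen by symbol for their role: 19 hydrolases and their activators, 6 lysosomal membrane and sterol transfer proteins, 15 subunits of the vacuolar proton pump, and 3 transcription factors of the MiT family. Each of the 43 symbols was found among the 54735 genes of the count files, and each of the 43 passed the filter on low counts that left 17080 genes for testing.

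The RNA came from macrophages in the liver of male C57BL/6 mice that received either saline (PBS) or acetaminophen (APAP), which injures hepatocytes at high dose. Kupffer cells (KCs), macrophages that reside in the liver sinusoids, were taken at 6, 12, 24, 36, 48, 72, 96, 120 and 168 h after APAP, with 4 libraries per time, and at 0 and 24 h after PBS, with 2 libraries per time. LAM-like KCs, a population named after lipid-associated macrophages, were taken at 36 and 48 h after APAP, with 4 libraries per time, which gives 13 groups and 48 libraries. The labels name no genetic alteration or second agent in these groups, and they give neither the age of the mice nor the criterion that separated LAM-like KCs from KCs. The file headers carry the word Hot in the 8 LAM-like KC files and Cold in the 40 KC files, with no meaning stated. Nor do the labels say whether each library is a mouse of its own, so the tests weigh differences against a spread between libraries that may be technical.

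Between 15885336 and 26058698 reads per library were counted in genes. The summed level of 9 KC markers, Clec4f and Timd4 among them, lay between 23190 and 57950 CPM (read counts scaled to a common library size) in the 48 libraries, and none of the 9 was at 0 in any library. Summed markers of T and NK cells stayed at or below 3.15 CPM, with up to 5 of their 5 genes at 0 in a library. Endothelial markers (7 genes) summed to 304 to 865 CPM, with none at 0 in any library. Monocyte markers (5 genes) summed to 345 to 723 CPM at 6 h against 170 to 318 CPM after PBS. Of 4 neutrophil markers tested, 3 were called higher at 6 h and 3 at 12 h. Their list summed to 70.8 to 96.2 CPM and 81.7 to 126 CPM, against 70.1 to 84.6 CPM after PBS. The part of these in the members' values was not tested. Summed hepatocyte markers (10 genes) ranged from 267 to 4833 CPM in 46 libraries and reached 5121 and 16590 CPM in replicates 1 and 2 of KCs at 72 h. The sample numbers in the file headers, parted after 25, gave set 1 (25 libraries, which hold PBS 24 h and mostly replicates 1 and 2) and set 2 (23 libraries, which hold PBS 0 h and mostly replicates 3 and 4). A comparison with PBS within 1 set therefore also changes the control group, and the 2 cannot be told apart. Of KCs at 12 h, set 2 holds replicate 4 alone, so each set 2 value of that time, the count of calls included, compares 1 KC library with PBS 0 h and assumes that it varies like the other groups.

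Lysosomal hydrolases are made in the endoplasmic reticulum, carried to the lysosome and active there at low pH, where they take apart sugars, lipids and proteins. The vacuolar proton pump sets that pH: its V1 sector, outside the membrane, splits ATP, and its V0 sector, in the membrane, carries the protons through. The MiT factors TFEB, TFE3 and MITF bind the E-box CACGTG in promoters of many such genes and are held in the cytoplasm when nutrients are plentiful. In the liver, KCs clear dying cells and red blood cells, whose lipids, sugars and haem end in this compartment.

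Promoter windows of 300 bases (250 before to 50 after the start site) from RefSeq, build GRCm38.p6, were at hand for 35 of the 43 genes. The 6 letters CACGTG, which read the same on both strands, occurred in a window of 10 of the 35 (28.6%), against 2187 of 27025 genes (8.09%) with such windows in the whole table. The 10 genes were Gla, Gaa, Glb1, Naglu, Lgmn, Lamp1, Mcoln1, Atp6v0d1, Atp6v0b and Atp6v1a. They were 5 of 17 hydrolases, 2 of 5 membrane proteins, 3 of 10 pump subunits and 0 of 3 MiT factors. The longer form TCACGTGA, which contains the first, occurred in 4 of the 35 (11.4%) against 1.12% of genes, and GTCACGTG, searched on both strands and overlapping the others, in 8 (22.9%) against 2.55%. A match is a match of letters and not a measured binding site. Windows are printed here for 4 genes that rose in KCs and in LAM-like KCs (Gla, Naglu, Atp6v0d1 and Atp6v1a), and for Glb1, which holds the same letters and fell in KCs. Capitals mark CACGTG, and each runs 5′ to 3′ on the strand of the gene.
Gla (chrX:134600956-134601255, minus strand): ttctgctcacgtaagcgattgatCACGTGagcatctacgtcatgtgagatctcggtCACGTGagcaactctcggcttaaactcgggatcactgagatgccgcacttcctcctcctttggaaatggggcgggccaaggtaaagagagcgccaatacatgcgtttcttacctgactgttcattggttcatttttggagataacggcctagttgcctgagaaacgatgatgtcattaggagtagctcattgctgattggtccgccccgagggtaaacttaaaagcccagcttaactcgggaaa
Naglu (chr11:101069844-101070143, plus strand): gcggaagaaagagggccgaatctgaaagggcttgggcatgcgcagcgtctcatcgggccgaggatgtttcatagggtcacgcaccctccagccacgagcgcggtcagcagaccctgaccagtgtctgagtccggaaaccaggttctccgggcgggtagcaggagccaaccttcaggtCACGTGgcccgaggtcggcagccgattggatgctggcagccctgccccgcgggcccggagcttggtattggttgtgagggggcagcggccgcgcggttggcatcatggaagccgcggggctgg
Glb1 (chr9:114400828-114401127, plus strand): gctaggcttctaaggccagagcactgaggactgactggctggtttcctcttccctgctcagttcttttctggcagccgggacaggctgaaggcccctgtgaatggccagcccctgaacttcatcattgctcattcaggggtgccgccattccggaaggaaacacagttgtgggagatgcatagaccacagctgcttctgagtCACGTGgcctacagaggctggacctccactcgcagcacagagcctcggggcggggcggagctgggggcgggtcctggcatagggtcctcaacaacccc
Atp6v0d1 (chr8:105566015-105566314, minus strand): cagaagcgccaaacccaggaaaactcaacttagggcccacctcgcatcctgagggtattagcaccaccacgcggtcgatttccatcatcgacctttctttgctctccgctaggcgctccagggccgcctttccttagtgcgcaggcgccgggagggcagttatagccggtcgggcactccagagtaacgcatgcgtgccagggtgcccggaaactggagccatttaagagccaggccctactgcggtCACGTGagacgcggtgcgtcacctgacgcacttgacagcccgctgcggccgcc
Atp6v1a (chr16:44139210-44139509, minus strand): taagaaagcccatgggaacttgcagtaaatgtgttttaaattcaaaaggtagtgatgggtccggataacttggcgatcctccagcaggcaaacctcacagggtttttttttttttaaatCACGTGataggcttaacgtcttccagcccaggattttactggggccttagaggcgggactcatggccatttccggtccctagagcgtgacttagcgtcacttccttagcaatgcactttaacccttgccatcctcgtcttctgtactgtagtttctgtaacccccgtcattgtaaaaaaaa
The window of Gla held CACGTG in 2 places, the first starting 227 bases before the start site. In Naglu, Glb1 and Atp6v1a it started 73, 48 and 131 bases before the start site, and in Atp6v0d1 at 3 bases before it.

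In KCs of PBS mice the members spanned more than 3 orders of magnitude in level per length. In CPM per kb of exonic length (GENCODE M21), the highest levels were those of Psap, which encodes the precursor of the sphingolipid activators, at 1608 ± 188 (SD, n = 4), and of the asparaginyl protease gene Lgmn at 1296 ± 114 (SD, n = 4). Progranulin (Grn) followed at 892 ± 74 (SD, n = 4) CPM per kb and the membrane glycoprotein gene Lamp1 at 838 ± 30.6 (SD, n = 4) CPM per kb. The ranges of Psap and Lgmn overlapped, as did those of Grn and Lamp1. The highest level per length among pump subunits was that of the accessory subunit Atp6ap1 at 185 ± 6.70 (SD, n = 4) CPM per kb. At the low end, Gla, Npc1 and Galc stood at 4.995, 3.54 and 3.45 CPM per kb, and Atp6v0d2 at 0.445 CPM per kb with a range of 0.0567 to 0.736. The PBS groups differed in 0 of 43 members (edgeR quasi-likelihood test with Benjamini-Hochberg adjustment, 1 member at an unadjusted p below 0.05, 0 with DESeq2), where 0.0527% of all genes were called, 0.0234% higher and 0.0293% lower at 24 h.

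**Figure D1:**
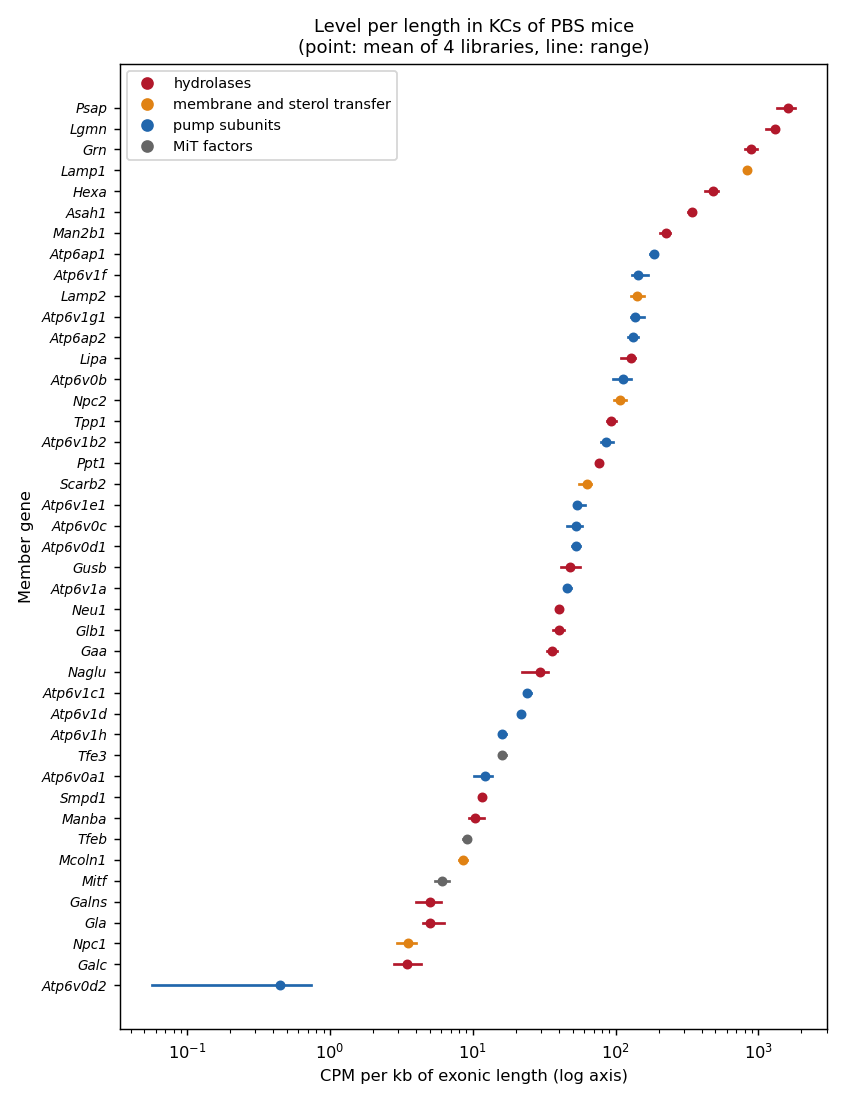
Level of each member in KCs of PBS mice, in CPM per kb of exonic length on a log axis. Points are means of 4 libraries and lines their range. Psap stands highest at 1608 CPM per kb and Atp6v0d2 lowest at 0.445 CPM per kb.

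KCs after APAP were compared with KCs after PBS to follow these genes through injury and repair. The same 4 PBS libraries serve every time, so the comparisons are not independent. In this bulk RNA, fewer cells of a type and less RNA per cell cannot be told apart. At 6 h, 11 members rose and 1 fell, so 27.9% of the members were called where 15.1% of all genes were (9.72% up and 5.42% down). At 12 h, 20 rose and 5 fell (58.1% against 20.6% of all genes, 12.5% up and 8.09% down), and at 24 h, 18 rose and 8 fell (60.5% against 26.9%, 16% up and 10.9% down). At 36 h the balance had turned, with 7 up and 12 down (44.2% against 26.2%, 15.8% up and 10.5% down). Of the 9 KC markers 7 were lower and 1 higher at 36 h, with a sum of 32770 to 34300 CPM against 45580 to 49640 CPM after PBS. All 5 cycling markers were higher, with a sum of 495 to 640 CPM against 39.3 to 157 CPM, and the part of either in the members' values was not tested. At 48 h, 4 rose and 0 fell (9.30% against 3.67%, 2.46% up and 1.21% down), and at 72 h, 5 rose and 0 fell (11.6% against 1.94%, 1.51% up and 0.427% down).

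At 96, 120 and 168 h, 0 members passed, where 0.158%, 0.123% and 0.0351% of all genes did. By direction, the genes called were 0.123% up and 0.0351% down at 96 h, 0.0995% up and 0.0234% down at 120 h, and 0.0234% up and 0.0117% down at 168 h. At an unadjusted p below 0.05 there were 11, 7 and 4 members at those times, and DESeq2 called 1, 0 and 0. A test for any difference among the 11 KC groups called 39 of 43 members, where 54.1% of all genes were called. The 4 members that did not pass were the acid glucosidase gene Gaa, Psap and the pump subunits Atp6v0b and Atp6v1f.

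The counts moved with single libraries and within sets. The share of all genes called in those fits is not given, so a moved count may not be particular to the members. Without PBS 0 h replicate 2 the count at 6 h was 6. At 48 h it was 1 without PBS 24 h replicate 2 or PBS 0 h replicate 2, and 2 without PBS 24 h replicate 1, KC 48 h replicate 1 or KC 48 h replicate 2. At 72 h it was 2 without PBS 24 h replicate 2, either PBS 0 h library or KC 72 h replicate 1, and 3 without PBS 24 h replicate 1. It was 10 when KC 72 h replicate 2 was left out and 8 when replicate 4 of that time was. Within sets 1 and 2, the members called numbered 12 and 8 at 6 h, 22 and 11 at 12 h, 23 and 14 at 24 h, 8 and 15 at 36 h, 8 and 0 at 48 h, and 5 and 3 at 72 h.

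**Figure D2:**
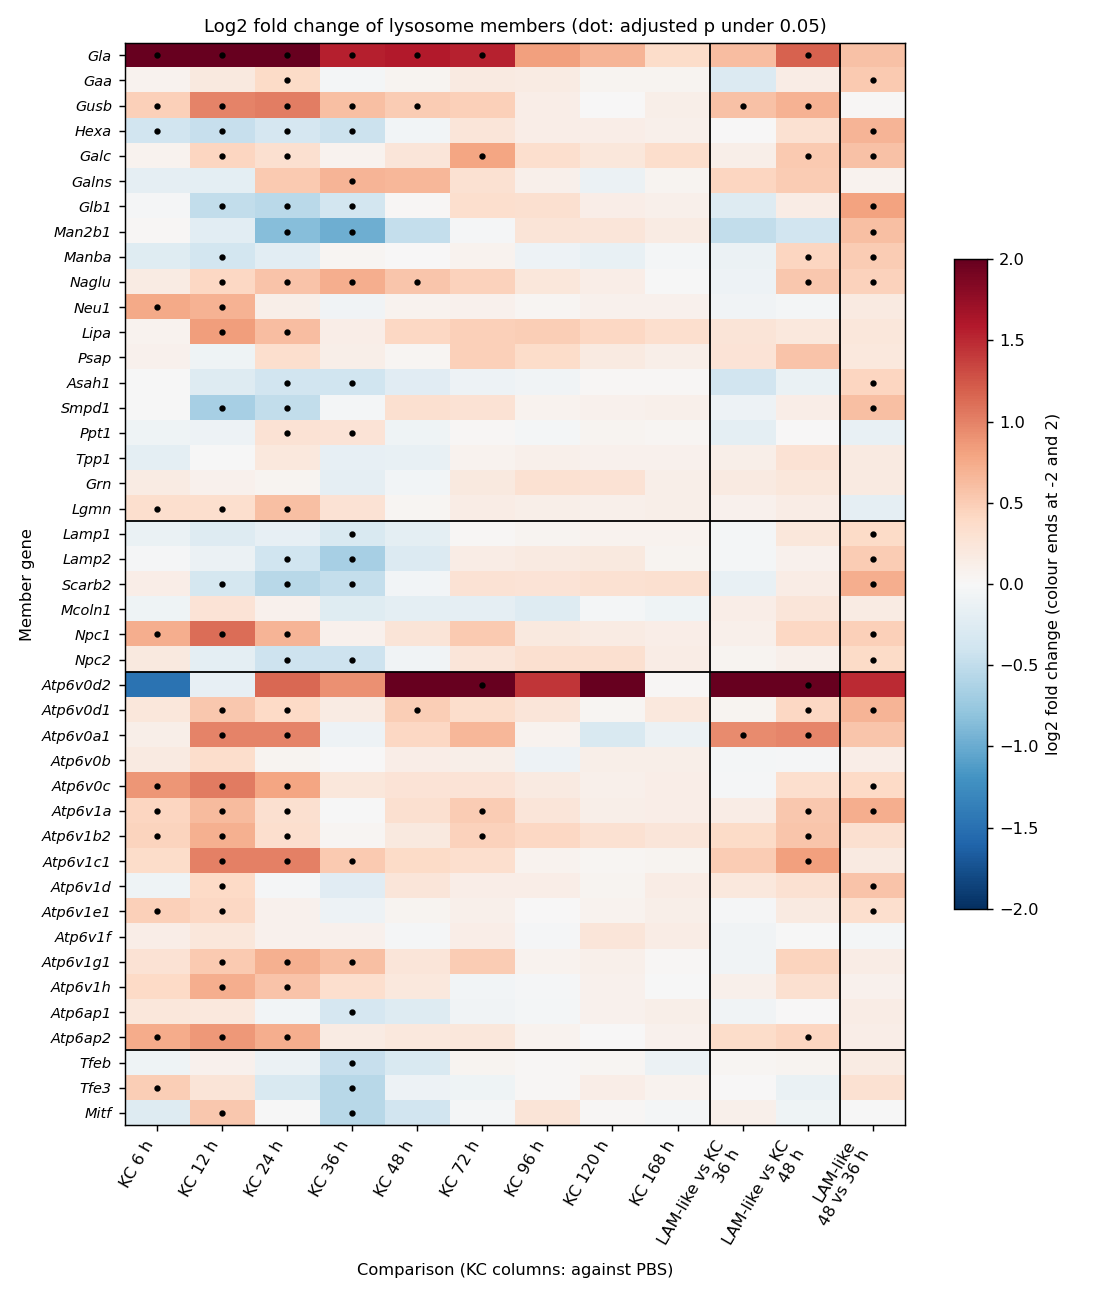
Log2 fold change of the 43 members (rows, from hydrolases at the top to MiT factors at the bottom) in 12 comparisons (columns). Dots mark an adjusted p below 0.05, as for 11 rises and 1 fall at 6 h and for 12 rises in LAM-like KCs at 48 h.

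The acid glycosidases split into genes that rose and genes that fell. Gla, the alpha-galactosidase that removes the terminal sugar of globotriaosylceramide (chromosome X, 134588149 to 134601125, minus strand), had the largest rises among them. It was at 20.6, 15.1, 14.9 and 14.7 CPM in the PBS libraries, at 80.6, 73.3, 56.8 and 59.5 CPM at 6 h, and at 103, 105, 67.0 and 91.9 CPM at 12 h. Every APAP library of those times lay above every PBS library. The rise was 2.06 ± 0.29 at 6 h (log2 fold change ± SE, adjusted p = 4.54e-06) and 2.50 ± 0.29 at 12 h (adjusted p = 9.46e-08), with 2.59 in set 1 and 2.37 in set 2.

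At 24 h Gla stood at 119 and 119.7 CPM in replicates 1 and 2 and at 39.7 and 52.3 CPM in replicates 3 and 4. Its rise of 2.35 ± 0.29 (adjusted p = 1.49e-07) was 2.97 within set 1 and 1.37 within set 2. It remained above PBS at 36 h (1.55 ± 0.28, adjusted p = 5.23e-05), 48 h (1.58 ± 0.28, adjusted p = 0.000575) and 72 h (1.54 ± 0.28, adjusted p = 0.00148), and with PBS 0 h alone as the control the adjusted p at 48 and 72 h was 0.0597 and 0.0886. The log2 fold change was 0.82 at 96 h, 0.69 at 120 h and 0.37 at 168 h, and none of these passed the test.

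Gusb, beta-glucuronidase (chromosome 5, 129989011 to 130003049, minus strand), was at 255, 189, 214 and 218 CPM in PBS libraries and at 431, 499, 420.1 and 396 CPM at 12 h. At 24 h it stood at 535, 506, 351 and 392 CPM, so that the groups did not overlap at either time. It rose by 0.996 ± 0.14 at 12 h (adjusted p = 1.57e-06) and by 1.03 ± 0.14 at 24 h (adjusted p = 5.33e-07). The rise at 48 h was smaller, 0.50 ± 0.14 (adjusted p = 0.0268), and it was lost without PBS 24 h replicate 1 or 2, KC 48 h replicate 1 or 2 or PBS 0 h replicate 2 (adjusted p from 0.0991 to 0.253).

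Naglu, the glucosaminidase that acts on heparan sulfate (chromosome 11, 101070012 to 101077672, plus strand), was at 78.7, 58.7, 89.7 and 86.4 CPM after PBS. It was at 129, 145, 125 and 115 CPM in KCs at 36 h, all above the PBS libraries, and rose by 0.72 ± 0.14 (adjusted p = 0.000161). At 48 h the values were 132, 123, 98.1 and 101 CPM, a rise of 0.55 ± 0.14 (adjusted p = 0.0205) that was lost when the same 5 libraries were left out 1 at a time (adjusted p from 0.0728 to 0.200).

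Galc, which splits galactosylceramide and whose transcript has a short antisense neighbour, rose at 12, 24 and 72 h, the first lost without PBS 0 h replicate 1 (adjusted p = 0.0593) and the second without KC 24 h replicate 1 or 4 or any PBS library (adjusted p up to 0.211). At 72 h it was at 100.02, 73.1, 85.8 and 93.8 CPM against 53.8, 64.0, 41.6 and 46.1 CPM after PBS, without overlap, a rise of 0.80 ± 0.12 (adjusted p = 6.45e-05). The sialidase gene Neu1 rose at 6 h by 0.76 (adjusted p = 1.94e-05) and at 12 h by 0.69 (adjusted p = 3.30e-05), and stood at 0.12 at 24 h (adjusted p = 0.507).

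Other glycosidases were lower than after PBS between 6 and 36 h. Man2b1, the alpha-mannosidase of glycoprotein breakdown (chromosome 8, 85083270 to 85098282, plus strand), was at 1919, 1817, 1835 and 1653 CPM after PBS. At 24 h it was at 866, 721, 1268 and 1147 CPM, and at 36 h at 892, 990.1, 886 and 889 CPM, below every PBS library at both times. It fell by 0.85 ± 0.16 at 24 h (adjusted p = 0.000125) and by 0.98 ± 0.16 at 36 h (adjusted p = 1.52e-05), with -0.89 in set 1 and -1.07 in set 2 at 36 h. At 96 h its 4 libraries stood at 2004 to 2333 CPM, above every PBS library, a difference that was not called.

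Hexa, a subunit of beta-hexosaminidase, was called lower at 6, 12, 24 and 36 h. At 12 h it was at 665, 740.3, 649 and 738 CPM against 1044, 1029, 919 and 848 CPM after PBS, a fall of 0.45 ± 0.12 (adjusted p = 0.00604, and 0.129 against PBS 24 h alone) without overlap. The fall at 6 h of 0.38 ± 0.12 (adjusted p = 0.0292) was carried by replicates 1 and 2, at 635 and 569.9 CPM, while replicates 3 and 4 at 922 and 816 CPM overlapped PBS. Without replicate 1 or 2 the adjusted p was 0.124 or 0.145, and it was 0.0590 to 0.0986 without PBS 24 h replicate 1 or either PBS 0 h library. The call at 24 h was lost without KC 24 h replicate 1 or 2, PBS 24 h replicate 1 or PBS 0 h replicate 1 (adjusted p up to 0.131). Glb1, beta-galactosidase, which shares exonic bases on the same strand with Tmppe, was at 85.7, 87.4, 86.4 and 83.5 CPM at 12 h against 126, 109, 130.1 and 115 CPM after PBS. It fell by 0.48 ± 0.12 (adjusted p = 0.00215), with -0.53 in set 1 and -0.49 in set 2.

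Lipid hydrolases and proteases gave mixed results. Lipa, the acid lipase that frees cholesterol and fatty acids from lipoprotein lipids, rose by 0.83 ± 0.14 at 12 h (adjusted p = 2.10e-05) and by 0.62 ± 0.14 at 24 h (adjusted p = 0.000661). Smpd1, acid sphingomyelinase, moved the other way at 12 h, at 22.6, 25.2, 24.2 and 25.4 CPM against 36.9, 37.9, 39.9 and 40.5 CPM after PBS. It fell by 0.67 ± 0.14 (adjusted p = 0.000337), with -0.78 in set 1 and -0.55 in set 2. The acid ceramidase gene Asah1 fell at 24 h (-0.38, adjusted p = 0.0324) and 36 h (-0.40, adjusted p = 0.0223). The 24 h call of Asah1 was lost without KC 24 h replicate 1 or 2, PBS 24 h replicate 2 or PBS 0 h replicate 1 (adjusted p up to 0.0998), and the 36 h call without KC 36 h replicate 1 or 2 or PBS 0 h replicate 1 (up to 0.0827). Lgmn rose by 0.60 ± 0.11 at 24 h (adjusted p = 9.00e-05), and its smaller rises at 6 and 12 h, 0.34 each, were lost when single libraries were left out. These were KC 6 h replicate 1 or any PBS library at 6 h (adjusted p up to 0.276), and KC 12 h replicate 1 or 2, PBS 24 h replicate 1 or 2 or PBS 0 h replicate 2 at 12 h (up to 0.176). Tpp1, Grn and Psap passed at no single time.

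Among membrane and sterol transfer proteins, Npc1, which moves cholesterol out of the lysosome and overlaps Rmc1 on the other strand, rose early. It was at 33.4, 40.5, 41 and 45.2 CPM after PBS and at 98.5, 90.4, 93.1 and 63.5 CPM at 12 h, without overlap, a rise of 1.11 ± 0.17 (adjusted p = 5.70e-06). Within sets this was 1.09 and 0.78. Npc2, its soluble partner, fell at 24 h (-0.42, adjusted p = 0.00549) and 36 h (-0.41, adjusted p = 0.00543). Scarb2, a membrane protein of lysosomes, was at 242, 224, 317 and 285 CPM at 24 h against 425, 422, 382 and 346 CPM after PBS, a fall of 0.56 ± 0.12 (adjusted p = 0.000690) without overlap. At 36 h Lamp1 (-0.31, adjusted p = 0.0284), Lamp2 (-0.66, adjusted p = 0.000152), Scarb2 (-0.48, adjusted p = 0.00311) and Npc2 were lower than after PBS. These were 4 of the 6, where 10.5% of all genes were called lower. The call of Lamp1 was lost without KC 36 h replicate 1, 2 or 3 or PBS 0 h replicate 1 (adjusted p up to 0.0700). Mcoln1, a calcium channel of the lysosome, passed at no time.

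The pump subunits that were called between 6 and 24 h all rose, while hydrolases were called in both directions. Of the 15, 5 rose at 6 h, 11 at 12 h and 9 at 24 h, where 9.72%, 12.5% and 16% of all genes were called higher. Without PBS 0 h replicate 2 the count at 6 h was 3, since Atp6v1a and Atp6v1b2 stood at an adjusted p of 0.0728 and 0.0631. Their median log2 fold change was 0.29 at 6 h, 0.55 at 12 h and 0.40 at 24 h, while that of the 19 hydrolases was 0.07, -0.0044 and 0.29 and that of all 17080 genes 0.04, 0.02 and 0.02. At 12 h 7 hydrolases rose and 4 fell, and at 24 h 8 rose and 5 fell, or 5 and 3 without KC 24 h replicate 1 or PBS 0 h replicate 1. At 36 h 2 subunits rose, Atp6v1c1 (0.52, adjusted p = 0.0124) and Atp6v1g1 (0.61, adjusted p = 0.00138), and Atp6ap1 fell (-0.33, adjusted p = 0.0156). Of these, the call of Atp6v1c1 was lost without PBS 24 h replicate 1 or PBS 0 h replicate 2 (adjusted p = 0.0783 and 0.0882), and that of Atp6ap1 without KC 36 h replicate 4 (adjusted p = 0.0524).

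In the membrane sector V0, Atp6v0c, the proteolipid of the rotor ring (chromosome 17, 24163866 to 24169702, minus strand), was at 196, 155, 188 and 176 CPM after PBS. It was at 394, 297, 301 and 331 CPM at 6 h and at 422, 421, 330.4 and 298 CPM at 12 h, above every PBS library. It rose by 0.89 ± 0.13 at 6 h (adjusted p = 6.57e-06), by 1.04 ± 0.13 at 12 h (adjusted p = 2.59e-07, with 1.07 in set 1 and 0.77 in set 2) and by 0.79 ± 0.13 at 24 h (adjusted p = 9.71e-06). The genome holds 2 processed pseudogenes of Atp6v0c, with which it may share reads.

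Atp6v0a1, the large membrane subunit that helps to form the proton path (chromosome 11, 101009452 to 101063719, plus strand), was at 81.1, 79.1, 89.4 and 67.3 CPM after PBS and at 206, 147, 141 and 137 CPM at 12 h. At 24 h it was at 214, 197, 83.3 and 138 CPM, and replicate 3 overlapped the PBS libraries. It rose by 0.99 ± 0.22 at 12 h (adjusted p = 0.00106) and 0.997 ± 0.22 at 24 h (adjusted p = 0.000722). Within set 2 the values were 0.78 and, at 24 h, 0.47 (adjusted p = 0.205). Atp6v0d1, the subunit that joins the rotor to the V1 stalk, rose by 0.55 ± 0.11 at 12 h (adjusted p = 0.000335), from 98.5, 89.2, 101 and 88.8 CPM to 155, 156, 124 and 117 CPM, and was one of the 4 genes called at 48 h (0.49 ± 0.11, adjusted p = 0.00590). That call was lost without PBS 24 h replicate 2 (adjusted p = 0.0730) or PBS 0 h replicate 2 (adjusted p = 0.0865).

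In the V1 sector 7 of 8 subunits rose at 12 h, where 12.5% of all genes were called higher. The stalk subunit Atp6v1c1 (chromosome 15, 38661933 to 38692446, plus strand) was at 143, 129.97, 128 and 138 CPM after PBS, at 303, 302, 221 and 260.3 CPM at 12 h and at 338, 323, 192 and 226 CPM at 24 h. It rose by 1.01 ± 0.16 (adjusted p = 1.40e-05) and 1.001 ± 0.16 (adjusted p = 9.79e-06) at those times, and no APAP library overlapped PBS. The ATP-splitting subunit Atp6v1a was at 276, 265, 293 and 273 CPM after PBS and at 467, 493, 414 and 345 CPM at 12 h, a rise of 0.64 ± 0.12 (adjusted p = 0.000157). Its partner in the hexamer, Atp6v1b2, was at 511, 469.6, 419 and 417 CPM after PBS and at 838, 854, 664 and 597 CPM at 12 h, a rise of 0.71 ± 0.12 (adjusted p = 3.08e-05). The accessory subunit Atp6ap2, also known as the prorenin receptor, was at 374, 342, 320.5 and 347 CPM after PBS and at 684, 675, 586 and 576 CPM at 12 h, and rose by 0.87 ± 0.11 (adjusted p = 4.83e-07). At 72 h Atp6v1a (0.50 ± 0.12, adjusted p = 0.0210) and Atp6v1b2 (0.46 ± 0.12, adjusted p = 0.0328) were again called higher. Either call was lost without KC 72 h replicate 1 or any PBS library, and that of Atp6v1b2 also without KC 72 h replicate 3 (adjusted p up to 0.155 and 0.188).

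**Figure D3:**
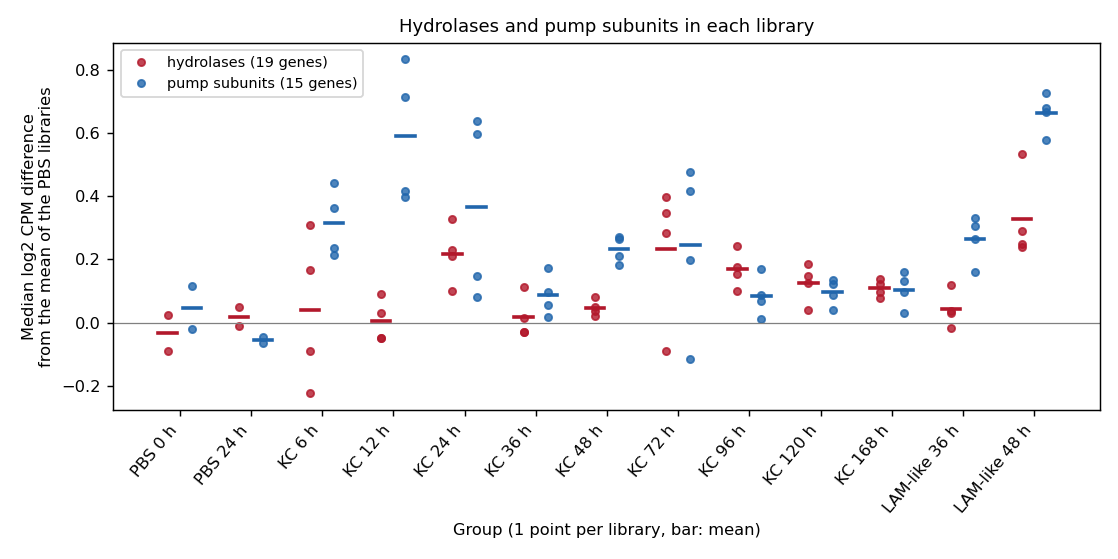
Median log2 CPM difference from the mean of the PBS libraries, over 19 hydrolases (red) and 15 pump subunits (blue), in each of 48 libraries by group. Points are libraries and bars their mean. At 12 h the pump medians lie between 0.40 and 0.83, and the hydrolase medians between -0.05 and 0.09.

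By library, as the median log2 difference from the PBS mean, the pump subunits at 12 h stood at 0.40 to 0.83 and the hydrolases at -0.05 to 0.09, so the ranges did not overlap. Pump minus hydrolase was 0.68 and 0.74 in replicates 1 and 2 of KCs at 12 h and 0.45 and 0.47 in replicates 3 and 4. At 24 h it was 0.31 and 0.39 in replicates 1 and 2 and -0.02 and -0.08 in replicates 3 and 4, so the gap of that time was seen in set 1 and not in set 2. At 6 h the order was the other way, with -0.10 and 0.07 in replicates 1 and 2 against 0.53 and 0.59 in replicates 3 and 4. In the 4 PBS libraries it was 0.09, 0.07, -0.04 and -0.11. Within sets 1 and 2 the median log2 fold change of the pump at 12 h was 0.66 and 0.36, and at 24 h 0.64 and 0.16. Summed LAM markers (8 genes, Trem2 and Gpnmb among them) were also higher at 12 h, at 5065 to 7130 CPM against 1182 to 1861 CPM after PBS, and their part in these values was not tested.

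**Figure D4:**
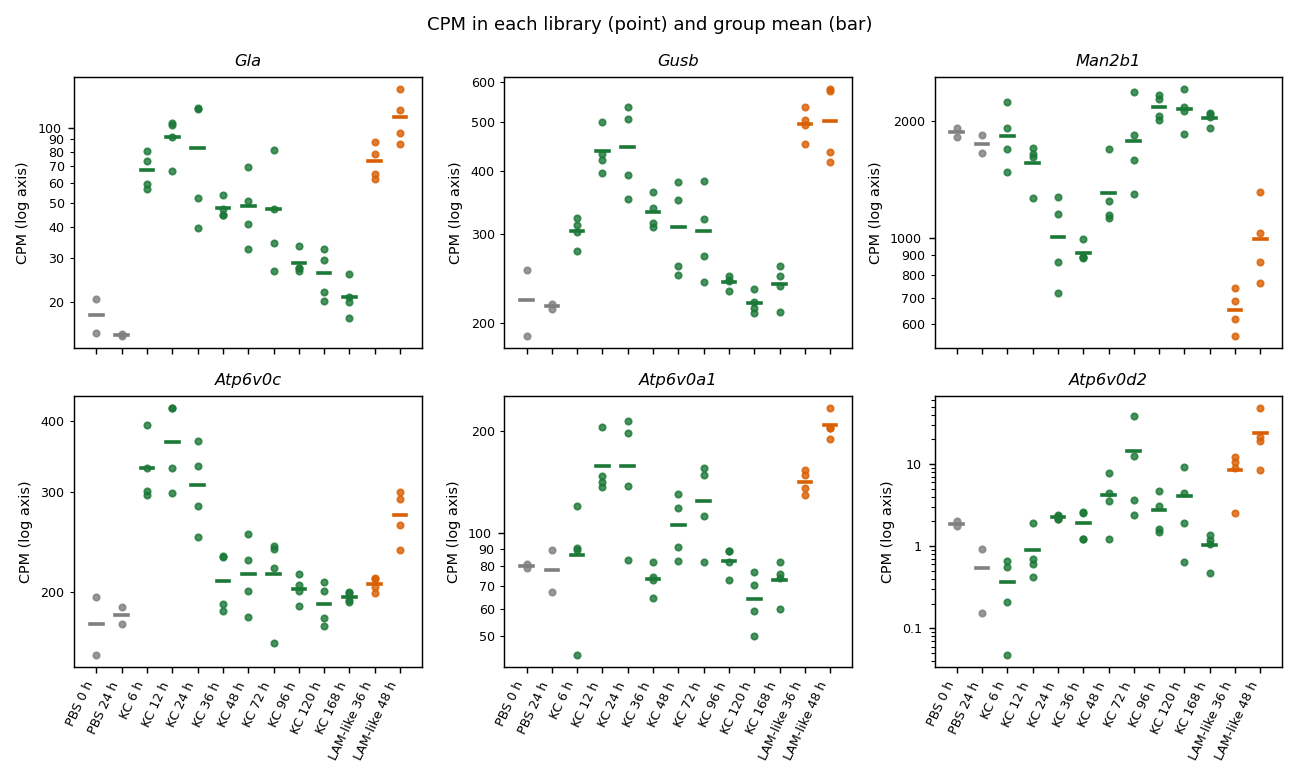
CPM on a log axis of 6 members in each library (points) by group, with group means (bars). Grey marks PBS, green KCs after APAP and orange LAM-like KCs. Gla stands between 67.0 and 105 CPM at 12 h against 14.7 to 20.6 CPM after PBS, and Atp6v0d2 reaches 38.8 CPM in 1 library of KCs at 72 h.

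The gene pair Atp6v0d1 and Atp6v0d2 encodes alternative forms of 1 subunit, the second of which is known from osteoclasts and macrophages. Per length, Atp6v0d2 made up 0.114% to 1.32% of the sum of both in the 4 PBS libraries and 0.0283% to 1.23% in KCs at 6 to 24 h. At 72 h its share was 16.3% and 8.24% in replicates 1 and 2 and 1.93% and 1.17% in replicates 3 and 4. In CPM the 72 h values were 38.8, 12.4, 3.63 and 2.42 against 1.9994, 1.75, 0.927 and 0.154 after PBS, a rise of 3.81 ± 0.78 (adjusted p = 0.00570). Replicates 1 and 2 were the libraries with summed hepatocyte markers of 5121 and 16590 CPM, where replicates 3 and 4 had 1061 and 934 CPM. Their summed stellate cell markers (7 genes) were 346 and 875 CPM against 33.5 and 36.3 CPM. Of the 8 LAM markers 7 were called higher at 72 h, and their sum was 5802 CPM in replicate 1 against 2448 to 2705 CPM in the other 3 libraries. The part of the stellate and LAM markers was not tested, and with the hepatocyte sum as a covariate the rise of Atp6v0d2 was 3.14 (adjusted p = 0.00702). Without KC 72 h replicate 1 it was 2.59 (adjusted p = 0.0862), and without PBS 24 h replicate 2, PBS 0 h replicate 1 or PBS 0 h replicate 2 the adjusted p was 0.102, 0.0523 and 0.0745. Within set 1 the rise was 5.51 and within set 2 0.69 (adjusted p = 0.727). The lowest PBS library held 3 reads of Atp6v0d2, so these fold changes rest on few control reads.

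LAM-like KCs were next compared with KCs of the same time. At 36 h, 2 members were higher and 0 lower, 4.65% of the members where 1.89% of all genes were called (0.773% higher and 1.11% lower). Gusb was at 534, 451, 504 and 491 CPM in LAM-like KCs and at 363, 316, 337 and 309 CPM in KCs, without overlap, a rise of 0.58 ± 0.14 (adjusted p = 0.0123). Atp6v0a1 was at 154, 148, 136 and 129.7 CPM against 82.2, 73.0, 64.6 and 74.3 CPM, again without overlap, a rise of 0.95 ± 0.22 (adjusted p = 0.0123). Gusb lost its call without KC 36 h replicate 2 or 4 or LAM-like 36 h replicate 1 (adjusted p = 0.0511, 0.0531 and 0.0557), and Atp6v0a1 without KC 36 h replicate 3 (adjusted p = 0.0516), so the count was 1 without each of these 4 libraries. Within set 1 0 members were called and within set 2 6 were, with the share of all genes in those fits not given. At 36 h summed monocyte markers (5 genes) were 14.99 to 48.4 CPM in LAM-like KCs against 157 to 289 CPM in KCs, and hepatocyte markers 321 to 716 CPM against 777 to 1369 CPM. The KC markers summed to 25160 to 27510 CPM against 32770 to 34300 CPM, and the LAM markers to 4967 to 7031 CPM against 1956 to 2596 CPM. Stellate cell markers (7 genes, 2 called lower) summed to 6.14 to 25.9 CPM against 39.9 to 55.1 CPM. Endothelial markers (7 genes, 3 called lower) summed to 304 to 381 CPM against 448 to 480 CPM. The part of the monocyte, KC, LAM, stellate and endothelial markers in the members' values was not tested.

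Libraries of LAM-like KCs and KCs with the same replicate number deviated together at both times, and with the number as a block within each time 13 members were called at 36 h, 9 up and 4 down, where 11.9% of all genes were. The block added 7 rises, those of Gla (0.61, adjusted p = 0.00389), Atp6v0d2 (2.07, adjusted p = 0.00214), Atp6v1c1 (0.50, adjusted p = 0.000682), Atp6v1b2 (0.38, adjusted p = 0.00139), Atp6ap2 (0.35, adjusted p = 0.000576), Lipa and Grn. It also added the falls of Man2b1 (-0.50, adjusted p = 0.000196), Asah1 (-0.39, adjusted p = 0.000347), Gaa and Ppt1, the thioesterase that takes fatty acids off proteins. Without the block Gla stood at 0.62 (adjusted p = 0.334) and Man2b1 at -0.49 (adjusted p = 0.134).

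At 48 h, 12 members were higher in LAM-like KCs than in KCs and 0 lower, 27.9% of the members where 2.51% of all genes were called (1.14% higher and 1.37% lower). They were 5 of 19 hydrolases, Gla, Gusb, Galc, Manba and Naglu, and 7 of 15 pump subunits, Atp6v0d2, Atp6v0d1, Atp6v0a1, Atp6v1a, Atp6v1b2, Atp6v1c1 and Atp6ap2. Without KC 48 h replicate 4 they were 2 hydrolases and 2 subunits. The libraries of the 2 populations did not overlap for any of the 12. These were picked by a test on the same libraries, so this adds no support. The median log2 fold change was 0.42 for pump subunits and 0.23 for hydrolases, against -0.01 for all genes. By library, pump minus hydrolase was 0.489, 0.388, 0.416 and 0.0443 in LAM-like KCs and 0.183, 0.235, 0.188 and 0.133 in KCs. In replicate 4 of LAM-like KCs it lay below every KC library of that time, so the wider gap was not seen in each library. With the replicate block 25 members were called, 24 up and 1 down, where 14.1% of all genes were, and all 12 were among them.

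Of the glycosidases, Gla stood at 142, 117, 86.0 and 94.8 CPM in LAM-like KCs at 48 h and at 69.7, 50.7, 41 and 32.7 CPM in KCs, a rise of 1.18 ± 0.27 (adjusted p = 0.0125, and 3.05e-05 with the block). Gusb was at 579, 574, 436 and 416 CPM against 379.9, 350.3, 248 and 259 CPM, a rise of 0.70 ± 0.14 (adjusted p = 0.00250). Naglu was at 180.0, 179, 149.8 and 153 CPM against 132, 123, 98.1 and 101 CPM, a rise of 0.54 ± 0.14 (adjusted p = 0.0291). In each of these 3 genes replicates 1 and 2 were the higher pair in both populations.

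Galc was at 77.5, 89.9, 72.7 and 106 CPM in LAM-like KCs at 48 h against 62.7, 53.8, 62.4 and 62.1 CPM in KCs, a rise of 0.52 ± 0.12 (adjusted p = 0.00824). Manba, the beta-mannosidase, was at 99.9, 89.9, 107 and 91.4 CPM against 68.9, 68.8, 78.5 and 72.9 CPM, a rise of 0.42 ± 0.11 (adjusted p = 0.0276). Neither had been called at 36 h, where Galc stood at 0.11 (adjusted p = 0.797). Man2b1 pointed the other way at both times, at -0.39 at 48 h (adjusted p = 0.241, and -0.41 with 0.000813 with the block).

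Of the V0 sector, Atp6v0a1 was at 204, 233, 189 and 205 CPM in LAM-like KCs at 48 h against 130.3, 119, 91.1 and 82.8 CPM in KCs, a rise of 0.97 ± 0.22 (adjusted p = 0.0104). Atp6v0d1 was at 187, 189, 165 and 167 CPM against 147, 136, 133 and 116 CPM, a rise of 0.42 ± 0.11 (adjusted p = 0.0291). Atp6v0d2 was at 21.3, 18.8, 8.53 and 47.8 CPM against 7.69, 3.58, 1.21 and 4.46 CPM, a rise of 2.50 ± 0.71 (adjusted p = 0.0471). The share of Atp6v0d2 in the sum of both forms was 6.97%, 6.15%, 3.29% and 15.9% in LAM-like KCs, and 3.34%, 1.71%, 0.598% and 2.49% in KCs.

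Of the V1 sector, Atp6v1c1 was at 381, 336, 280.4 and 247 CPM in LAM-like KCs at 48 h against 218, 162, 173 and 153 CPM in KCs. Its rise of 0.82 ± 0.16 (adjusted p = 0.00250) was the 1 call among the 12 that held in each alternative analysis and without each single library. Atp6v1a was at 536, 530.0, 473 and 474 CPM against 402, 345, 328 and 312 CPM (0.54 ± 0.12, adjusted p = 0.00929). Atp6v1b2 was at 778, 710.0, 716 and 826 CPM against 543, 516, 502 and 501 CPM (0.56 ± 0.12, adjusted p = 0.00621). For the accessory subunit Atp6ap2 the values were 532, 553, 552 and 534 CPM against 415, 395, 389 and 409.7 CPM (0.43 ± 0.11, adjusted p = 0.0232), without overlap.

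The count of 12 at 48 h was 4 when KC 48 h replicate 4 was left out, 6 when KC 48 h replicate 3 or LAM-like 48 h replicate 1 was, and 2 when both libraries numbered 4 were. Each of the 12 kept its direction in those fits. Gusb, Galc, Atp6v1b2 and Atp6v1c1 were called without each single library. Gla was lost without KC 48 h replicate 3 or 4 or LAM-like 48 h replicate 1 (adjusted p = 0.0595, 0.0801 and 0.0727), Atp6v0a1 without KC 48 h replicate 3 or 4 (0.0547 and 0.0664) and Atp6v1a without KC 48 h replicate 4 (0.0614). Naglu was lost without KC 48 h replicate 3 or 4 or LAM-like 48 h replicate 1 or 2 (adjusted p up to 0.129), and Manba without KC replicate 1, 2 or 4 or LAM-like replicate 1 or 3 of that time (up to 0.104). Atp6v0d1 was lost without KC replicate 2, 3 or 4 or LAM-like replicate 1 or 2 (up to 0.159), and Atp6ap2 without those or LAM-like replicate 3 (up to 0.0726). Atp6v0d2 was lost without KC replicate 2, 3 or 4 or LAM-like replicate 1, 2 or 4 (up to 0.153, with a rise of 1.93 without LAM-like replicate 4). In KC 48 h replicate 4 the summed KC markers stood at 45890 CPM, against 30790 to 36450 CPM in the other 3 libraries. Within set 1 the count was 3 and within set 2 8, with the share of all genes in those fits not given. The log2 fold changes within sets 1 and 2 were 1.12 and 1.30 for Gla, 0.67 and 0.75 for Gusb, 0.92 and 0.70 for Atp6v1c1 and 0.82 and 1.18 for Atp6v0a1. Summed hepatocyte markers stood at 267 to 928 CPM in LAM-like KCs and at 598 to 1981 CPM in KCs at 48 h. With that sum as a covariate 9 members were called, and Manba, Atp6v0d1 and Atp6ap2 stood at an adjusted p of 0.130, 0.100 and 0.141. Summed LAM markers were 3877 to 6092 CPM against 1744 to 2337 CPM and monocyte markers 17.9 to 67.3 CPM against 144 to 324 CPM. Of 7 stellate cell markers 2 were called lower in LAM-like KCs, and of 7 endothelial markers 2. The part of these 4 lists in the members' values was not tested.

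Whether the difference between LAM-like KCs and KCs grew from 36 to 48 h was tested as an interaction. The test called 0 of 43 members (9 at an unadjusted p below 0.05, 0 with DESeq2), where 0.00585% of all genes were called. With the block within time it called 1, Naglu, whose difference was 0.65 larger at 48 h (adjusted p = 0.0334), where 0.295% of all genes were called. Among LAM-like KCs alone, 19 members were higher at 48 h than at 36 h and 0 lower, 44.2% of the members where 14.2% of all genes were called (5.56% higher and 8.68% lower). Glb1 stood at 115, 124, 125 and 176 CPM at 48 h against 81.5, 73.2, 76.3 and 78.3 CPM at 36 h, a rise of 0.81 ± 0.12 (adjusted p = 5.23e-06). Scarb2 rose by 0.72 (adjusted p = 5.60e-05), Atp6v1a by 0.73 (adjusted p = 4.05e-05), Atp6v0d1 by 0.68 (adjusted p = 2.59e-05) and Hexa by 0.67 (adjusted p = 0.000128). These 19 were 9 hydrolases, 5 membrane and sterol transfer proteins and 5 pump subunits. Without LAM-like 48 h replicate 4 the count was 13, and 2 of the membrane and sterol transfer proteins were called. Lamp1, Lamp2 and Npc2 then stood at an adjusted p of 0.133, 0.0882 and 0.175, and the calls of Gaa, Man2b1 and Asah1 were lost too. Without LAM-like 36 h replicate 2 the membrane count was 3, Npc1 and Npc2 being lost (adjusted p = 0.0686 and 0.0555). Within sets the counts were 12 and 16, and without both 48 h libraries numbered 4 the count was 13. KCs were not tested between these times. Their library medians against PBS, averaged by group, went from -0.356 to -0.117 for membrane and sterol transfer proteins. For pump subunits they went from 0.0858 to 0.232 and for hydrolases from 0.0175 to 0.0467. In LAM-like KCs these steps were -0.353 to 0.0467, 0.265 to 0.662 and 0.0428 to 0.328. The rise is thus not shown to be particular to LAM-like KCs.

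**Figure D5:**
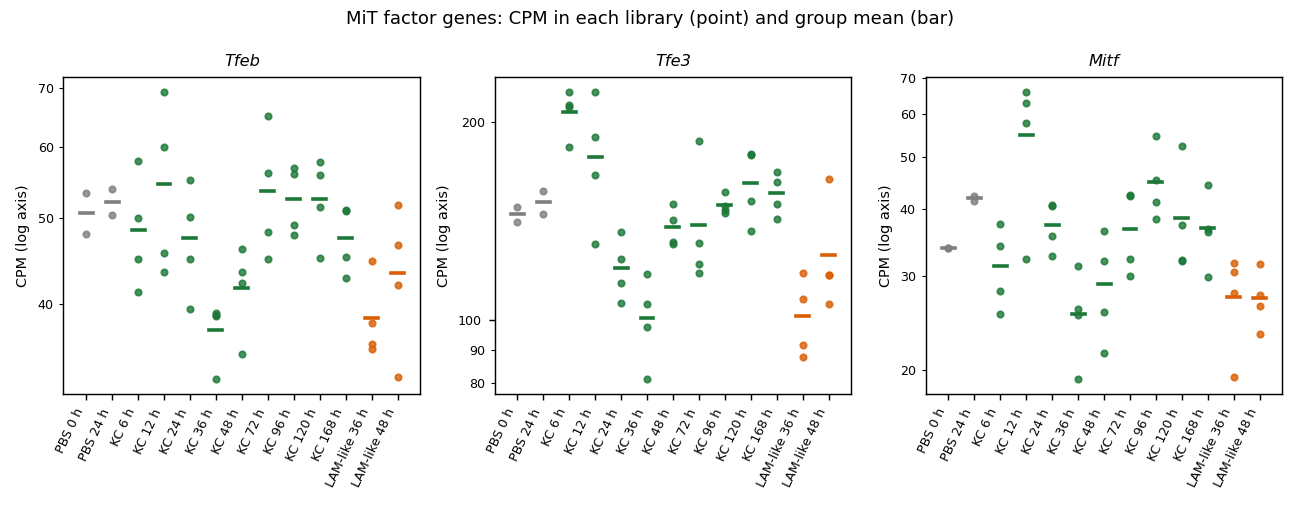
CPM on a log axis of Tfeb, Tfe3 and Mitf in each library (points) by group, with group means (bars). Tfe3 lies between 183 and 223 CPM at 6 h and between 81.1 and 118 CPM at 36 h, against 141 to 157 CPM after PBS.

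Transcripts of the MiT factors themselves rose early in part and were lower at 36 h. Tfe3 (chromosome X, 7762560 to 7775202, plus strand) was at 149, 141, 157 and 145 CPM after PBS and at 223, 211, 213 and 183 CPM at 6 h, a rise of 0.49 ± 0.14 (adjusted p = 0.0142) without overlap. The call was lost without PBS 24 h replicate 2 (adjusted p = 0.0740) or PBS 0 h replicate 2 (adjusted p = 0.0704). At 36 h Tfe3 was at 106, 118, 81.1 and 97.5 CPM, below every PBS library, a fall of 0.56 ± 0.14 (adjusted p = 0.00253), with -0.44 in set 1 and -0.70 in set 2. The difference between 36 and 6 h was -1.05 ± 0.14 (adjusted p = 2.29e-07).

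Mitf (chromosome 6, 97807052 to 98021349, plus strand) was at 33.8, 33.8, 41.4 and 42.3 CPM after PBS. At 12 h it was at 66.2, 63.0, 57.8 and 32.3 CPM, so that replicate 4 lay below the PBS libraries, and it rose by 0.54 ± 0.19 (adjusted p = 0.0384). Leaving out 1 of the 4 PBS libraries, or 1 of replicates 1, 2 and 3, raised the adjusted p to between 0.0745 and 0.151, and within set 2, which holds replicate 4 alone of that time, the value was -0.07. At 36 h Mitf was at 25.4, 26, 31.3 and 19.2 CPM and fell by 0.56 ± 0.19 (adjusted p = 0.0260, and 0.115 without KC 36 h replicate 4). Tfeb (chromosome 17, 47737030 to 47792419, plus strand) was at 53.3, 48.0, 53.9 and 50.4 CPM after PBS and at 38.8, 39.1, 32.9 and 38.9 CPM at 36 h, without overlap, and fell by 0.46 ± 0.14 (adjusted p = 0.0120, and 0.0532 without KC 36 h replicate 3).

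In LAM-like KCs against KCs the 3 factors stood between 0.01 and 0.10 at 36 h and between -0.14 and 0.06 at 48 h, with adjusted p from 0.734 to 0.997. Their SE was 0.14 to 0.19. In this fit without the block, the members called had differences of at least 4.27 times their SE at 36 h and 3.52 times at 48 h. For these factors that would be 0.595 to 0.82 at 36 h and 0.489 to 0.675 at 48 h. Smaller differences of these factors could thus go uncalled in this fit. Of the 10 members with CACGTG in a promoter window, 5 rose and 1 fell at 12 h, and 4 rose at 48 h in LAM-like KCs against KCs. Of the 25 with a window and without these letters, 10 rose and 4 fell at 12 h, and 5 rose in LAM-like KCs at 48 h. Of the 8 with no window, 5 rose at 12 h and 3 in LAM-like KCs at 48 h. The shares called were 60%, 56% and 62.5% at 12 h, where 20.6% of all genes were, and 40%, 20% and 37.5% in LAM-like KCs at 48 h, where 2.51% were.

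A list of 122 further lysosome and autophagy genes that passed the filter gave the setting. In KCs 20 rose and 3 fell at 6 h, 34 and 12 at 12 h, 24 and 24 at 24 h, 9 and 28 at 36 h, 1 and 3 at 48 h and 7 and 0 at 72 h. These were 18.9%, 37.7%, 39.3%, 30.3%, 3.28% and 5.74% of the list. Of all genes 15.1%, 20.6%, 26.9%, 26.2%, 3.67% and 1.94% were called. With both directions counted, the shares at 6, 36 and 48 h lay near those of all genes, but by direction they differed. At 6 h 16.4% of the list rose and 2.46% fell, against 9.72% and 5.42% of all genes. At 36 h 7.38% rose and 23% fell, against 15.8% and 10.5%. At 48 h 0.82% rose and 2.46% fell, against 2.46% and 1.21%. Among those with the smallest adjusted p, Hgsnat, an acetyltransferase of heparan sulfate breakdown, rose by 1.32 at 12 h (adjusted p = 1.36e-08), and Clcn7, the chloride exchanger of the lysosome, by 0.93 (adjusted p = 2.59e-06). Plekhm1, an adaptor in the fusion of autophagosomes with lysosomes, rose by 1.21 (adjusted p = 6.31e-08), and the autophagy gene Wipi1 fell by 1.60 (adjusted p = 0.000206) at that time. The pump assembly factor gene Vma21 rose by 1.09 at 24 h (adjusted p = 1.96e-06). Cd63, a membrane protein of late endosomes that is also in the LAM marker list, rose by 3.70 at 24 h (adjusted p = 2.92e-05). The autophagy genes Map1lc3a and Ulk1 fell by 1.70 (adjusted p = 7.64e-07) and 1.33 (adjusted p = 4.11e-05) at 24 h.

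In LAM-like KCs 3 of the 122 were higher and 2 lower than in KCs at 36 h, and 7 higher and 0 lower at 48 h, 4.1% and 5.74% of the list where 1.89% and 2.51% of all genes were called. Cd63 was among the higher at both times (2.40, adjusted p = 0.0151, and 2.64, adjusted p = 0.00824), and the lower at 36 h were Smpdl3a (-0.61, adjusted p = 0.0219) and Sidt2 (-0.67, adjusted p = 0.0345). Between 36 and 48 h in LAM-like KCs 36 rose and 4 fell, 32.8% of the list against 14.2% of all genes. Among the rises were those of Map1lc3b by 1.02 (adjusted p = 7.40e-08) and of the arylsulfatase gene Arsa by 0.99 (adjusted p = 1.51e-06). Among the falls were those of Vma21 (-0.58, adjusted p = 0.00768), Gnptab, which encodes a subunit of the enzyme that tags hydrolases for sorting (-0.57, adjusted p = 0.00605), and the autophagy gene Atg16l1 (-0.39, adjusted p = 0.0330).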

How the data were processed

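Bulk RNA sequencing of 48 libraries was used; single-cell and spatial data were not analysed here. The deposited values are raw counts of reads per gene, and per the submitters' processing notes reads were handled with HISAT2 2.2.0, featureCounts 2.0.0, SAMtools 1.10 and FastQC 0.11.9 on build mm10. The strand setting and the annotation release are not given in the sources used here, so reads of members with an overlapping gene on the other strand (Hexa, Galc, Ppt1, Grn, Lamp1, Npc1, Atp6v0b, Atp6v1e1 and Atp6v1h) cannot be told from those of that gene.

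Genes were filtered with filterByExpr, scaled with TMM and fitted across all 13 groups with edgeR 4.0.16 (limma 3.58.1, R 4.3.3), by the quasi-likelihood test with robust estimation. KCs after APAP were tested against the mean of both PBS groups with equal weight, LAM-like KCs against KCs of the same time, and p-values were adjusted over all 17080 genes within each comparison (Benjamini-Hochberg, called below 0.05). CPM are counts relative to the TMM-scaled library size, and class medians use log2 CPM with a prior count of 2. Between 15885336 and 26058698 reads per library bound the precision of low members such as Atp6v0d2. The procedure was tested on simulated data, drawn independently for each library from the fitted model. Those data held no pairing or set of libraries, so that test cannot show how the procedure behaves with them.

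Values in each library are given for members called between LAM-like KCs and KCs (up to 12 by adjusted p), the MiT factors, both Atp6v0d forms and the 2 largest rises and falls at 6, 12, 24, 48 and 72 h. The members, the lists and the rules were chosen with earlier results of these data known. Libraries of called members that do not overlap are described and add no support, since the calls rest on the same libraries. Other members are given by fold change and test. Some genes of the further lysosome list that its naming rule picked are not reported here.

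Alternatives were RLE scaling, no low count filter, a replicate block, each PBS group alone, the compared groups alone, DESeq2 1.42.0 and leaving out each library. The fits by set of header numbers, with the hepatocyte marker sum, with the block within time, with the header replicate numbers, and without both 48 h libraries numbered 4 were chosen after seeing the data. The residual correlation of same-numbered libraries was 0.126 to 0.191 between LAM-like KCs and KCs at 36 h and 0.189 to 0.350 at 48 h, in all 4 pairs at each time. The block within time therefore took the numbers as pairs, as a pairing seen in the data. The main fit and the fits without single libraries used no block, so their SE and adjusted p are unpaired. For libraries of other numbers it was -0.156 to 0.126 at 36 h and -0.241 to 0.163 at 48 h. The positive ones among these were all between libraries of the same set. The part of the set in this pairing was not tested. For KCs after APAP and PBS the median was -0.00563 over 36 pairs matched by the label numbers, and these were not paired. The file headers number the PBS 0 h replicates differently from the labels, so this median cannot show whether libraries are paired by header number. Annotation (GENCODE M21) and promoter windows (RefSeq, GRCm38.p6) were read with Python 3.11.15, and figures drawn with matplotlib 3.10.9.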

Additional observations from a re-analysis of the deposited data

Results flagged for a closer look

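A pair of MiT factors was called higher than after PBS at an early time and lower at 36 h. Both early rises lost their call when single PBS libraries were left out. Mitf was lower at 36 h than at 12 h (log2 difference of -1.1, SE 0.19, adjusted p = 2.33e-05 by edgeR), and Tfe3 was lower at 36 h than at 6 h (-1.05, SE 0.14, adjusted p = 2.29e-07). These times were picked from their calls against PBS, so the tests describe the size of the difference.

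Single libraries stood apart from the other 3 of their group by Dixon's criterion in 12 of 242 groups of 4 for the genes described by library, and in 15 of 473 over all members, where chance gives about 1 in 20. On the high side these were Atp6ap2 in KC 6 h replicate 1 (671 CPM), Atp6v0a1 in KC 12 h replicate 1 (206 CPM), Gla in KC 96 h replicate 1 (33.5 CPM), Glb1 in LAM-like 48 h replicate 4 (176 CPM) and Hexa in KC 36 h replicate 4 (738 CPM). Man2b1 and Npc1 stood high in KC 36 h replicate 2 (990 and 51.8 CPM), and Npc1 also in KC 48 h replicate 1 (55.7 CPM). On the low side these were Atp6v1a and Hexa in KC 72 h replicate 2 (306 and 794 CPM), Galc in KC 48 h replicate 2 (53.8 CPM) and Tfeb in KC 36 h replicate 3 (32.9 CPM). KC 72 h replicate 2 is the library with the highest hepatocyte marker sum, 16590 CPM.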

How the results depend on the processing

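Of the 124 member calls, 34 held in every alternative run: 4 at 6 h, 6 at 12 h, 10 at 24 h, 6 at 36 h, 1 in LAM-like KCs against KCs at 48 h (Atp6v1c1), 7 between LAM-like KCs at 48 and 36 h, and 0 in the other comparisons. Counts of members called that moved by more than 1.5 times were as follows, and the causes were not tested. Listed with them are moved class medians, a count by direction at 24 h and the ranges without single libraries. Those ranges and the count by direction include counts that moved less. The share of all genes called is given for the main fit and the block within time alone. A moved count may therefore not be particular to the members. At 72 h the count was 8 with RLE scaling, 3 without the low count filter, 10 with the set as a covariate, 0 in the compared groups alone and 9 with DESeq2. The replicate block over all groups gave 7 at 48 h, 11 at 72 h and 2 at 96 h, and with the header numbers 9 at 72 h. The block within time gave 13 and 25 for LAM-like KCs at 36 and 48 h and 1 for the interaction. With PBS 0 h alone the counts at 36, 48 and 72 h were 12, 0 and 0. With PBS 24 h alone they were 6, 11 and 2 at 6, 36 and 48 h, and the pump median at 36 h was 0.18. With the hepatocyte sum as a covariate LAM-like KCs at 36 h had 4 calls, the hydrolase medians at 24 and 36 h were 0.14 and -0.048, and the pump medians of LAM-like KCs at 36 and 48 h 0.0010 and 0.27. At 24 h that fit called 12 up and 10 down, against 18 and 8. Set 1 alone gave 8 at 36 h, 8 at 48 h, 0 and 3 for LAM-like KCs at 36 and 48 h and 12 between LAM-like times. Its hydrolase median at 72 h was -0.024, and its pump medians were 0.014 for LAM-like KCs at 36 h, 0.38 for the interaction and 0.46 between LAM-like times. Set 2 alone gave 11 (from 1 KC library), 14, 0 and 3 at 12, 24, 48 and 72 h and 6 for LAM-like KCs at 36 h. Its hydrolase medians at 6 and 36 h were -0.17 and -0.063, and its pump medians were 0.14 at 48 h and 0.24 between LAM-like times. The compared groups alone gave 6, 3 and 1 at 6, 96 and 120 h and 9 and 6 for LAM-like KCs at 36 and 48 h. DESeq2 gave 7 at 48 h, 1 at 96 h and 5 for LAM-like KCs at 36 h. Without both 48 h libraries numbered 4, LAM-like KCs at 48 h had 2. Leaving out single libraries gave 6 to 12 at 6 h, 20 to 26 at 12 h, 19 to 25 at 24 h, 14 to 17 at 36 h, 1 to 5 at 48 h, 2 to 10 at 72 h, 1 to 2 and 4 to 11 for LAM-like KCs, 13 to 18 between LAM-like times and 37 to 40 for any KC difference. It moved the hydrolase median at 36 h between -0.06871 and 0.05004, that between PBS groups between -0.0282 and 0.1125 and the pump median of LAM-like KCs at 48 h between 0.3535 and 0.4435. In set 2 alone Mitf at 12 h stood at -0.066, which restates KC 12 h replicate 4, the 1 library of that time there, and Atp6v1b2 at 24 h reversed (-0.045, adjusted p = 0.857). The median of all genes moved by no more than 0.1 in any alternative.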
